A study of Mus musculus with 8 samples.

Results

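This report describes 5-hydroxymethylcytosine (5-hmC) at 10 genes of the myeloid lineage in mouse pro-B cells with and without the histone deacetylase HDAC7. The genes were *Spi1*, *Cebpa*, *Cebpb*, *Csf1r*, *Csf3r*, *Itgam*, *Itgb2*, *Lyz2*, *Cd14* and *Ahnak*. They were listed by name, with earlier results of these data known, and all 10 were found among the 21938 protein-coding genes of the GENCODE annotation of mouse assembly GRCm38. The window of a gene was its annotated body with 5 kb on each side. For every window, the peaks of each library that touched it were counted and the bases under peaks were summed.

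DNA was from pro-B cells (B220+ CD43+ IgM-) sorted from bone marrow of C57BL/6 mice aged 4 to 6 weeks. The HDAC7-deficient mice were Hdac7 fl/- with Cre expressed from the *Cd79a* (mb1) locus, which restricts deletion of the floxed allele to the B lineage. Controls were littermates labelled wild-type. The study's text gives their genotype as Hdac7+/-, so animals of both groups carried 1 *Hdac7* allele that was null from the germ line. Sonicated DNA was immunoprecipitated with an antibody to 5-hmC and sequenced (hMeDIP-seq), in 2 libraries per genotype. The sources used here do not say whether a library came from 1 animal or from several, so the spread between libraries may be technical.

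The 4 lists were of similar size, from 1305200 peaks in wild-type replicate 1 to 1414862 in HDAC7-deficient replicate 1. Median peak width lay between 146 and 172 bp, and 8.68 to 10.3% of the known bases of the genome were under peaks. The lists gave no peak height and no read number, so sequencing depth was unknown and only presence, position and width could be compared. HDAC7-deficient replicate 2 covered 1.24 times as many bases of chromosome 18 and 1.21 times as many of chromosome 19 as the mean of the other libraries. On chromosomes 2, 4, 7 and 10 the same ratio was 1.02 to 1.04. These values touch *Csf1r*, *Cd14* and *Ahnak*, and with each library scaled to the mean density of its chromosome the ratios of peak bases without HDAC7 over wild-type moved from 0.946 to 0.900 at *Csf1r*, from 1.39 to 1.31 at *Cd14* and from 0.964 to 0.911 at *Ahnak*, each by less than the SD of the ratio.

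5-hmC is made from 5-methylcytosine by the TET dioxygenases and is found mostly at CpG dinucleotides. In many cell types it lies in the bodies of active genes, at enhancers and beside promoters, where it can be an intermediate of active demethylation. Pro-B cells have committed to the B lineage, and the myeloid transcription factors, cytokine receptors and adhesion molecules of macrophages and granulocytes are normally held silent or low in them. No RNA was measured in these libraries, so whether the genes were repressed could not be checked here. *Ahnak* encodes a large scaffold protein that many cell types express and is no defining myeloid marker.

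Peaks covered more of the myeloid genes than of protein-coding genes at large, in each of the 4 libraries. Over the 10 windows together, 16.6 and 15.0% of the bases were under peaks in wild-type replicates 1 and 2, while the 2 libraries without HDAC7 reached 14.4 and 14.2%. The windows of all protein-coding genes were covered to 9.33, 10.6, 9.09 and 10.5% in the same order. The lowest library at the myeloid genes was therefore above the highest library of all genes. Peak density showed the same order, with 0.721 to 0.862 peaks per kb at the 10 genes and 0.534 to 0.573 over all protein-coding windows.

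The sums over the 10 genes differed little between genotypes. Peaks numbered 313 and 287 with HDAC7 and 323 and 270 without it, so the groups overlapped, with a ratio of HDAC7-deficient over wild-type means of 0.988 ± 0.139 (SD, n = 2 per genotype; two-sided exact permutation p = 1.00). The summed peak bases were 62282 and 56156 in wild-type libraries against 54129 and 53111 without HDAC7, which did not overlap. That ratio was 0.905 ± 0.0673 (SD, n = 2 per genotype; two-sided exact permutation p = 0.333, the smallest value that 2 against 2 libraries allow). This test could thus not reach significance for any value given here. Most of the difference in summed peak bases lay at *Spi1*, with means of 10662 bp in wild-type libraries and 7328 bp without HDAC7. The means over the 10 genes were 59219 and 53620 bp. With *Spi1* left out, the summed peak bases of the genotypes overlapped.

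Gene by gene, no member was higher, and none lower, in peak number, where higher (lower) means that each library without HDAC7 lay above (below) each wild-type library. Over all protein-coding genes, 11.9% were higher and 10.8% lower by this rule. In peak bases 0 of 10 members were higher, where 9.96% of all genes were, and 2 of 10 were lower, where 16.9% of all genes were. The 2 lower members were *Spi1* and *Lyz2*. Their number is close to what the share among all genes gives for 10 genes.

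**Figure D1:**
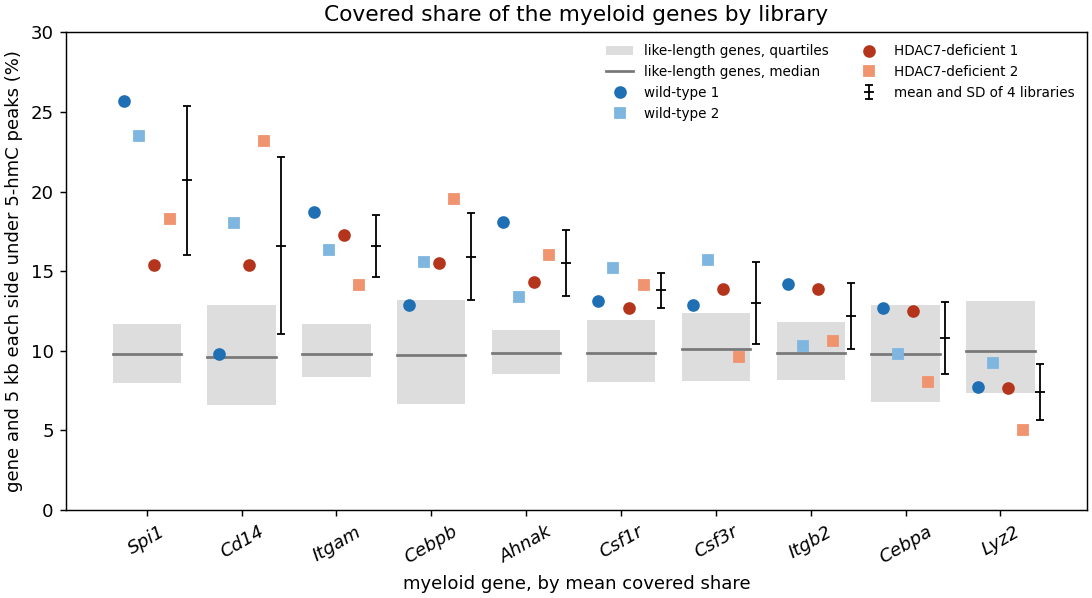
Percent of each gene and its 5-kb flanks under 5-hmC peaks (vertical axis), with 1 point per library, the mean and SD of the 4 libraries as a black bar, and grey boxes for the quartiles and median of protein-coding genes of like length. *Spi1* lies highest, with both wild-type libraries above both HDAC7-deficient ones, and *Lyz2* lies lowest, with all 4 libraries below the median of its like-length genes.

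The order of coverage ran from *Spi1*, at 20.7 ± 4.68% (SD of the 4 libraries), through *Cd14* at 16.6 ± 5.56%, *Itgam* at 16.6 ± 1.95%, *Cebpb* at 15.9 ± 2.74% and *Ahnak* at 15.5 ± 2.06%. Below them stood *Csf1r* at 13.8 ± 1.09%, *Csf3r* at 13.0 ± 2.55%, *Itgb2* at 12.2 ± 2.08%, *Cebpa* at 10.8 ± 2.27% and *Lyz2* at 7.41 ± 1.74%. Neighbours in this order differed by less than their combined SD except at its end, where *Cebpa* and *Lyz2* differed by 3.36 percentage points with a combined SD of 2.86. Within libraries, *Itgb2* lay above *Cebpa*, and *Cebpa* above *Lyz2*, in all 4. Each other pair of neighbours kept its order in 2 or 3 libraries. Set against protein-coding genes whose length lay within 25% of their own, *Spi1* was above 99.5% of 2921 genes, *Itgam* above 98.6% of 2230 and *Ahnak* above 97.7% of 1658. The same rank was 89.9% for *Cd14*, 88.4% for *Csf1r*, 87.3% for *Cebpb*, 80.4% for *Csf3r*, 80.0% for *Itgb2*, 58.1% for *Cebpa* and 25.8% for *Lyz2*. A rank of at least 80.0% was thus shared by 8 of the 10 genes, by the mean of the 4 libraries. In single libraries 3 of the 8 came near or below the middle of their like-length genes, *Itgb2* at 44.1% in wild-type replicate 2 and 55.4% in HDAC7-deficient replicate 2, *Csf3r* at 42.8% in HDAC7-deficient replicate 2 and *Cd14* at 54.7% in wild-type replicate 1.

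*Spi1* encodes PU.1, the ETS-family transcription factor that myeloid cells need at high level and B-cell progenitors at low level. The gene lies on the plus strand at chr2:91082390-91115756, and 2613 bp of its window are shared with *Mybpc3*. Its number of peaks was nearly even, with 50 and 45 in wild-type libraries against 45 and 44 without HDAC7. The bases under them were 11142 and 10181 in wild-type libraries against 6700 and 7957 without HDAC7, so that the genotypes did not overlap and the ratio was 0.687 ± 0.0942 (SD, n = 2 per genotype; exact permutation p = 0.333). The introns of the annotated gene held most of this difference. There 9292 and 8094 bp were under peaks in wild-type libraries against 5442 and 6377 bp without HDAC7.

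The union of all peaks over *Spi1* gave 77 separate regions. Of these, 13 had a peak in all 4 libraries and 46 in a single library. Regions with a peak in each wild-type library and in no library without HDAC7 are called lost here, and the reverse gained. *Spi1* had 6 lost regions and 0 gained. At the 10 genes together 17 of 516 regions, or 3.29%, were lost and 8, or 1.55%, were gained, beside 2.50% lost and 2.82% gained over all protein-coding windows. *Spi1* held 6 of these 17. Outside its lost regions the peak bases of *Spi1* were still 9183 and 8336 in wild-type libraries against 6700 and 7957 without HDAC7, a ratio of 0.837.

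The widest lost region of *Spi1* spanned 795 bp at chr2:91095381-91096175, with 717 and 722 bp under peaks in wild-type and none in HDAC7-deficient libraries. Only 0.151% of the 62233 lost regions of the genome were as wide or wider, against a median of 238 bp. GENCODE places the gene start at that of its most upstream transcript, and the next coding transcript starts 13706 bp further on, which is called the internal start here. The lost region ran from 715 bp before to 79 bp after the internal start. A second lost region, of 360 bp, ended 876 bp before that start. Within 1 kb of the internal start there were 818 and 847 peak bases in wild-type libraries and 141 and 0 in HDAC7-deficient libraries. Of the 54327 coding transcript starts in the annotation, 5 including this one fell by at least as many bases, a mean of 762 bp. This start was singled out after its values had been seen, so the fall is given with no test. Around the upstream gene start the genotypes overlapped, with 473 and 222 bp in wild-type libraries against 162 and 269 bp without HDAC7.

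**Figure D2:**
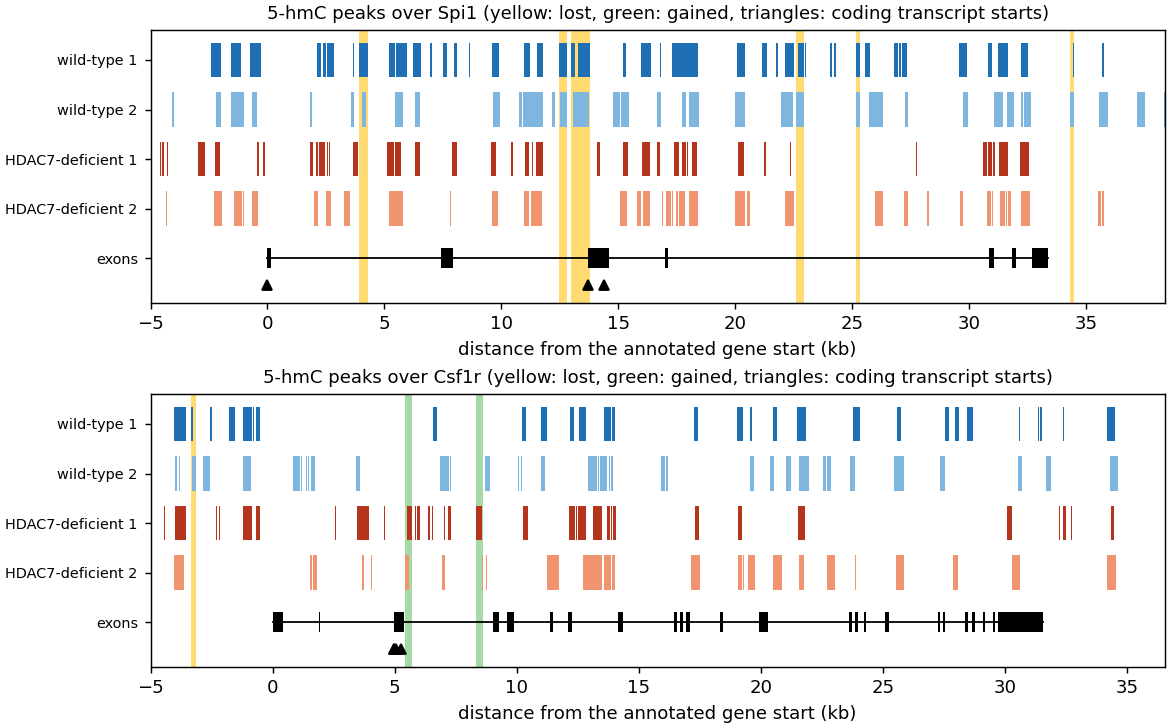
Peaks of each library (coloured blocks, 1 row per library) over *Spi1* and *Csf1r*, by distance in kb from the annotated gene start, with exons in black, coding transcript starts as triangles, lost regions in yellow and gained regions in green. *Spi1* has 6 lost and 0 gained regions, the widest ending just after the internal start of *Spi1*, and *Csf1r* has 2 gained and 1 lost.

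Peaks shared by all 4 libraries covered 5.01% of the *Spi1* window, the highest share of the 10 genes, beside 2.61% over the 10 windows together and 1.29% over all protein-coding windows. The widest such stretch of *Spi1*, in intron 4 at chr2:91102509-91102765, is printed because it shows what a stretch under peaks of every library can look like. It reads as imperfect repeats of ATCC, which it holds 23 times, and it has 0 CpG dinucleotides. In this and the other sequences below, taken from GRCm38 and read 5′ to 3′ on the strand of the gene, capitals mark CpG.
Spi1 intron 4: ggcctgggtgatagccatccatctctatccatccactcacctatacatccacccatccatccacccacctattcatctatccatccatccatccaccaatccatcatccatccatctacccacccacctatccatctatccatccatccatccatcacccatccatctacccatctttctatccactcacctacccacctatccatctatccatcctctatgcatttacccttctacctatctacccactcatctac
Of its 257 bases, 196 are marked as repeats in the assembly. Over the whole *Spi1* window, CpG density was 1.53 per 100 bases where no library had a peak and 0.645 where all 4 had one, and the share of bases marked as repeats was 22.6 and 35.5%. All protein-coding windows gave 0.972 and 0.905 CpG per 100 bases and 27.8 and 36.4% repeats, so the repeat share was higher under shared peaks there too. The part of repeats in the peaks was not tested.

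*Cebpa* and *Cebpb* encode C/EBPα and C/EBPβ, basic leucine zipper factors that drive granulocyte and macrophage programmes, and both are single-exon genes within CpG islands. *Cebpa* (chr7:35119293-35121928, plus strand) had 9 and 9 peaks in wild-type libraries against 10 and 4 without HDAC7. Its peak bases were 1607 and 1241 in wild-type libraries against 1584 and 1012 without HDAC7, which overlapped. In its exon 190 bp were under peaks in wild-type replicate 1 and none in the other 3 libraries. *Cebpb* (chr2:167688915-167690418, plus strand) had 7 and 9 peaks in wild-type libraries against 16 and 9 without HDAC7. Its peak bases were 1485 and 1795 in wild-type libraries against 1785 and 2249 without HDAC7, overlapping by 10 bp, with a ratio of 1.23 ± 0.259 (SD, n = 2 per genotype). The *Cebpb* window also holds parts of *Tmem189* and of the long noncoding gene *A530013C23Rik*. No region of either C/EBP gene was gained or lost, out of 18 at *Cebpa* and 16 at *Cebpb*.

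Most of the peak bases at both genes lay in the flanks. Over the exon of *Cebpb* there were 110 and 0 peak bases in wild-type libraries against 128 and 103 without HDAC7, and the last of 10 equal bins of its body was covered to 38.4% on the mean of the 4 libraries. The windows held 3.07 CpG per 100 bases at *Cebpa* and 3.46 at *Cebpb*, against 1.22 over the 10 windows together. Bases under peaks of *Cebpb* held 1.01 and 1.45 CpG per 100 in wild-type libraries against 1.74 and 1.69 without HDAC7, and bases outside peaks 3.78 to 3.89. At *Cebpa* the bases under peaks held 2.36 and 0.645 in wild-type libraries against 0.821 and 0.889 without HDAC7, and those outside 3.17 to 3.39. The CpG density under peaks was thus the lower in every library at both genes. The 300 bases around the RefSeq start of *Cebpa*, with 29 CpG, had no peak base in any library, and those of *Cebpb*, with 50 CpG, had 11 bp in HDAC7-deficient replicate 2 and none elsewhere.

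*Csf1r* encodes the receptor for macrophage colony-stimulating factor, a defining gene of monocytes and macrophages that PU.1 is known to activate. It lies at chr18:61100598-61132149 on the plus strand. There were 31 and 44 peaks in wild-type libraries against 38 and 30 without HDAC7, and the peak bases were 5462 and 6296 against 5276 and 5846, a ratio of 0.946 ± 0.117 (SD, n = 2 per genotype). The totals overlapped. Of its 70 regions 2 were gained and 1 lost. The widest gained region was 308 bp wide, with 230 and 158 bp under peaks without HDAC7, and lay from 451 to 758 bp after the first coding transcript start. That start lies 4974 bp after the annotated gene start. Within 1 kb of it neither wild-type library had a peak base, and 400 and 191 bp were covered without HDAC7. A rise of that size or larger was seen at 1716, or 3.16%, of the 54327 coding starts. The lost region, of 212 bp, had its midpoint 3246 bp upstream of the gene start.

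*Cd14* encodes the lipopolysaccharide coreceptor of monocytes. Its gene is on the minus strand at chr18:36725067-36726798. Each library had 8 peaks except HDAC7-deficient replicate 1, which had 10. Peak bases were 1149 and 2114 in wild-type libraries against 1804 and 2717 without HDAC7, which overlapped, with a ratio of 1.39 ± 0.702 (SD, n = 2 per genotype). The exon was free of peaks in both wild-type libraries and held 88 and 319 bp without HDAC7, from a single gained region of 319 bp. HDAC7-deficient replicate 2, the library with the higher coverage of this chromosome, held the most bases at the gene and in the region.

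*Csf3r* encodes the receptor for granulocyte colony-stimulating factor, found on neutrophils and their precursors. It occupies chr4:126024550-126044440 on the plus strand. Counts were 20 and 28 peaks in wild-type libraries against 21 and 20 without HDAC7, with 3868 and 4684 peak bases against 4164 and 2874, which overlapped (ratio 0.823 ± 0.240, SD, n = 2 per genotype). Its 38 regions included 1 gained region of 181 bp, with its midpoint in exon 4, and none lost. The widest stretch shared by all 4 libraries at any of the 10 genes was here, 437 bp with its midpoint in exon 15 and reaching into the introns beside it (chr4:126042467-126042903). Within 1 kb of the gene start there were 0 and 96 peak bases in wild-type libraries against 508 and 274 without HDAC7.

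*Itgam* and *Itgb2* encode the alpha and beta chains of the integrin Mac-1 (CD11b and CD18), by which neutrophils and macrophages adhere and take up opsonised particles. *Itgam* (chr7:128062640-128118491, plus strand) had 56 and 46 peaks in wild-type libraries against 59 and 47 without HDAC7. Its peak bases were 12308 and 10706 against 11386 and 9259, which overlapped, with a ratio of 0.897 ± 0.158 (SD, n = 2 per genotype). Nearly all of the window, 60809 bp, is also annotated to the readthrough gene *Gm49368*, and positions alone do not tell them apart. Its 90 regions held 1 gained region of 140 bp and 4 lost, the widest of 619 bp at chr7:128116682-128117300 with its midpoint in exon 29, with 162 and 619 bp under peaks in the wild-type libraries. Among all lost regions 0.797% were as wide.

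The widest stretch of *Itgam* under peaks of all 4 libraries lay in intron 1, with its midpoint 345 bp from the gene start, at chr7:128062851-128063118. It is printed as the shared stretch closest to the start of a member among the widest ones, and it holds 3 CpG in 268 bp.
Itgam intron 1: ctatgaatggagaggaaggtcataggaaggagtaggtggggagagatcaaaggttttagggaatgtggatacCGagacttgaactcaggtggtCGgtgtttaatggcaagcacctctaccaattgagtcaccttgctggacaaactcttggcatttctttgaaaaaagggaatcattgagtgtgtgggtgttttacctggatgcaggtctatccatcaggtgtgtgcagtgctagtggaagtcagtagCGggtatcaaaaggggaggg
Within 1 kb of the gene start, 949 and 709 bp were under peaks in wild-type libraries against 600 and 684 bp without HDAC7. The genotypes did not overlap there, but the gap between the nearest libraries was smaller than the gap within either genotype.

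*Itgb2* (chr10:77530252-77565708, plus strand) had 38 and 26 peaks in wild-type libraries against 35 and 35 without HDAC7. Its peak bases were 6448 and 4675 against 6297 and 4802, nearly the same pair of values in each genotype, with a ratio of 0.998 ± 0.294 (SD, n = 2 per genotype). Replicate 1 was the higher in both. Of 60 regions 2 were gained, the wider of 256 bp at chr10:77553558-77553813 in intron 8, and 2 were lost, the wider of 201 bp at chr10:77541643-77541843 in intron 1. The widest stretch shared by all 4 libraries, at chr10:77535463-77535629 in intron 1, is a run rich in TG that lies wholly in sequence marked as repeat and has 0 CpG, and is shown beside that of *Spi1* as a second shared stretch without CpG.
Itgb2 intron 1: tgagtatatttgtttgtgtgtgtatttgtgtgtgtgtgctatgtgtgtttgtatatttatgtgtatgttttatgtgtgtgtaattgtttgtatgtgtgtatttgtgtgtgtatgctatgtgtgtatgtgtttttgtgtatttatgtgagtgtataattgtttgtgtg
Within 1 kb of the gene start, 623 and 537 bp were under peaks in wild-type libraries against 434 and 147 bp without HDAC7.

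*Lyz2* encodes lysozyme M, the bacteriolytic enzyme of macrophages and neutrophils, and its locus is widely used to drive myeloid Cre. It lies on the minus strand at chr10:117277331-117282321. Counts were 7 and 6 peaks in wild-type libraries against 8 and 5 without HDAC7. The peak bases were 1158 and 1384 in wild-type libraries against 1145 and 757 without HDAC7, which did not overlap, although 13 bp separated the nearest libraries. The ratio was 0.748 ± 0.235 (SD, n = 2 per genotype; exact permutation p = 0.333). No exon of *Lyz2* had a peak base in any library, and none of its 13 regions was gained or lost. In the gene body alone the direction turned, to a ratio of 1.07, and with peaks of at least 200 bp the ratio was 0.434. The widest stretch shared by the 4 libraries lay downstream of the gene at chr10:117275786-117275942, and is shown because, unlike those of *Spi1* and *Itgb2*, it holds CpG, 4 in 157 bp, and no base marked as repeat.
Lyz2 downstream: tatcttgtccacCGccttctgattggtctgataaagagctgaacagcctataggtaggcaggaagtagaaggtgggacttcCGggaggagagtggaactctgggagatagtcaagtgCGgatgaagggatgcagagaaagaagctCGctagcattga

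*Ahnak*, the longest of the 10 genes, lies at chr19:8989284-9076914 on the plus strand. There were 87 and 66 peaks in wild-type libraries against 81 and 68 without HDAC7, with 17655 and 13080 peak bases against 13988 and 15638, which overlapped (ratio 0.964 ± 0.217, SD, n = 2 per genotype). Of its 122 regions 24 were in all 4 libraries, 1 was gained, of 529 bp at chr19:9068638-9069166 in intron 9, and 4 were lost, the widest of 417 bp at chr19:9022055-9022471 in intron 6. The gained region was wider than most, since 3.32% of the 75449 gained regions of the genome were as wide. In the promoter, taken from 1 kb before to 100 bp after the gene start, the libraries divided by replicate number and not by genotype. Replicates 1 had 701 bp under peaks in wild-type and 889 bp in HDAC7-deficient cells, and replicates 2 had 152 and 188 bp.

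The 300 bases around the RefSeq start of *Ahnak* (chr19:8989034-8989333, assembly GRCm38.p6) are printed because they are CpG-rich, with 22 CpG, and a library had most of them under peaks. Peak bases there were 71 and 22 in wild-type libraries against 274 and 0 without HDAC7.
Ahnak promoter: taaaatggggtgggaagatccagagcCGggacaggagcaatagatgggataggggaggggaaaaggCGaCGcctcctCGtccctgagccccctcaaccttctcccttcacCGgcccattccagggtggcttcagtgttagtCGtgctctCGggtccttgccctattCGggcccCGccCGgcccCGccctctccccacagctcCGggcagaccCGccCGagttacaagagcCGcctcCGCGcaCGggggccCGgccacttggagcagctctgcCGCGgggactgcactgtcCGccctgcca
RefSeq promoter windows were at hand for 6 of the 10 genes, *Cebpa*, *Cebpb*, *Csf3r*, *Itgam*, *Lyz2* and *Ahnak*, and outside those of *Cebpb* and *Ahnak* no library had a peak base in them. The letters GAGGAAGT, a core bound by PU.1, and TTGCNNAA, bound by C/EBP factors, were searched on both strands, and the 2 patterns cannot match the same bases in full. Neither was found in the 6 windows, and 3.20 and 10.8% of all RefSeq promoter windows hold them. Peaks at the 10 genes held GAGGAAGT in 2.24 and 2.09% of cases in wild-type libraries against 1.86 and 1.85% without HDAC7, which rests on 5 to 7 peaks per library, beside 1.48 to 1.66% of all peaks. TTGCNNAA was found in 6.07 and 6.97% of the member peaks in wild-type libraries against 3.41 and 8.15% without HDAC7, so the latter lay on either side of the former.

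**Figure D3:**
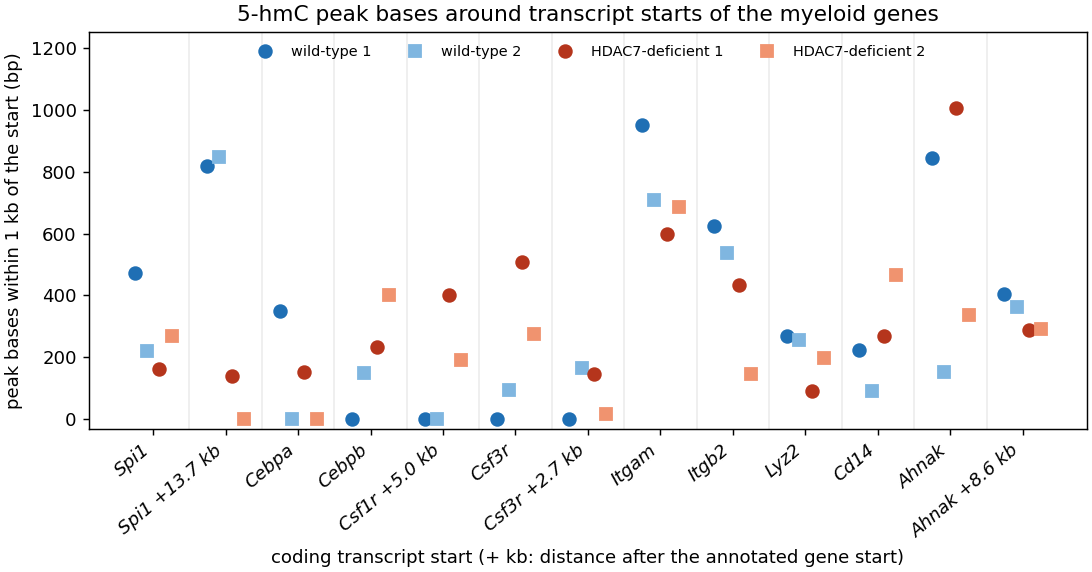
Peak bases within 1 kb of a coding transcript start (vertical axis, bp) for each gene's coding starts that lie at least 1 kb apart, with 1 point per library. At the internal start of *Spi1* the wild-type libraries lie at 818 and 847 bp and those without HDAC7 at 141 and 0, at *Csf1r* both wild-type libraries are at 0, and at the gene start of *Ahnak* replicates 1 of both genotypes lie above replicates 2.

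Around coding transcript starts the members moved in both directions. At least 1 start was higher without HDAC7 in peak bases within 1 kb, by the same rule of groups that do not overlap, at 4 of 10 genes, *Cebpb*, *Csf1r*, *Csf3r* and *Cd14*, where 16.7% of protein-coding genes had such a start. The reverse held at 5 of 10 genes, *Spi1*, *Itgam*, *Itgb2*, *Lyz2* and *Ahnak*, where 20.7% of all genes did. At *Ahnak* the start that was lower lies 8614 bp after the gene start. It had 404 and 361 bp in wild-type libraries against 288 and 292 bp without HDAC7. At the gene starts of *Ahnak* and *Spi1* the genotypes overlapped. A gained region lay within 1 kb of a coding start at *Csf1r* and *Cd14*, or 2 of 10, beside 9.80% of all genes, and a lost region at *Spi1*, or 1 of 10, beside 9.65%. The window of 1 kb was chosen after the values of *Spi1* had been seen. Genes with several starts have more chances to be counted.

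Along the 10 genes the promoters were covered to between 13.4 and 22.5% in the 4 libraries, introns to 16.8 ± 1.37% (SD of the 4 libraries), the rest of the upstream flank to 15.6 ± 2.03%, the downstream flank to 12.9 ± 2.32% and exons to 7.77 ± 1.85%. Over all protein-coding genes the same parts had 10.1, 9.94, 10.5, 9.97 and 8.41%. On the mean of the 4 libraries, exons were thus the part where coverage did not exceed that of all genes. The difference there was smaller than the SD, and the libraries disagreed. Member exons were above all genes in wild-type replicate 1 (9.02 against 7.64%) and HDAC7-deficient replicate 2 (9.69 against 8.85%). They were below in wild-type replicate 2 (6.01 against 9.54%) and HDAC7-deficient replicate 1 (6.37 against 7.61%). *Ahnak*, covered to 6.74%, gave 19838 of the 46280 exon bases. Every one of the 10 promoters had a peak base in at least 1 library, whereas 21.1% of all protein-coding genes had none. These promoters lie at the annotated gene start, which at *Csf1r* is 4974 bp before the first coding transcript start. At *Spi1* the promoter is that of Spi1-204, 13706 bp before the internal start. Promoter coverage of the 10 genes was 22.3 and 22.5% in replicates 1 of wild-type and HDAC7-deficient cells, and 13.8 and 13.4% in replicates 2. This sum thus divided by number, but most of the gap was the *Ahnak* promoter given above. In bases the sums were 2450 and 2472 bp in replicates 1, and 1516 and 1476 bp in replicates 2. *Ahnak* held 701 and 889 bp of the former and 152 and 188 bp of the latter. Over all protein-coding promoters replicates 1 were the lower, at 9.85 and 9.57%, with each replicate 2 above both.

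**Figure D4:**
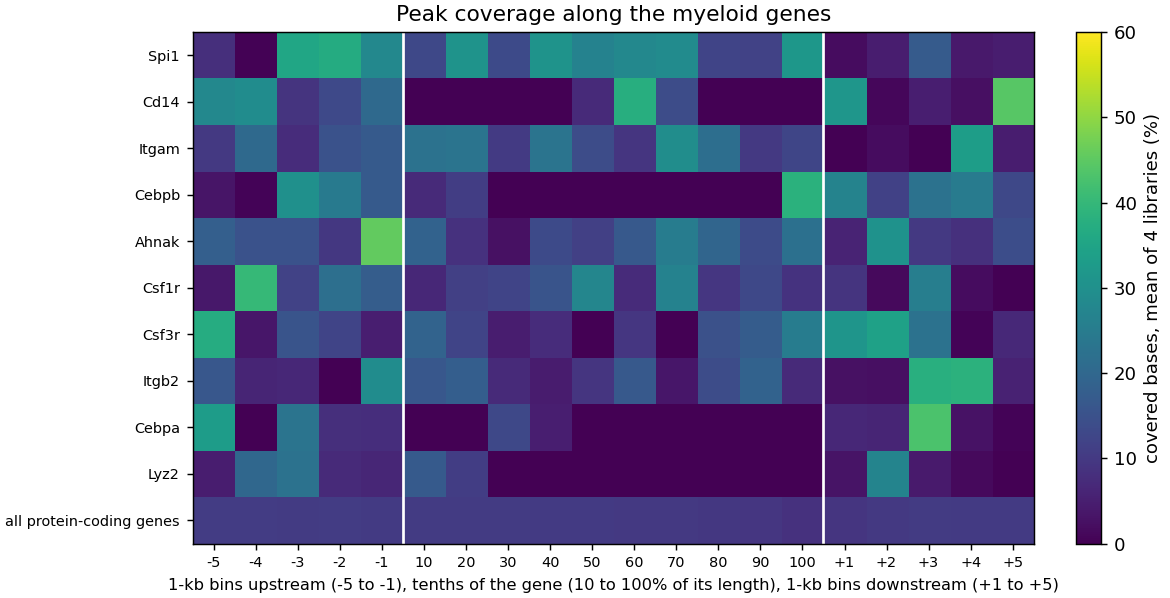
Percent of bases under peaks, mean of the 4 libraries (colour), in 1-kb bins upstream, 10 equal bins of the gene body and 1-kb bins downstream, for each gene and for all protein-coding genes. *Spi1* is covered to 11.8% or more in every bin of its body, whereas *Cebpa*, *Cebpb*, *Csf3r*, *Lyz2* and *Cd14* have body bins with no peak base in any library, and the mean of all genes is nearly flat. The 10 body bins are far narrower at *Cebpb*, of 1504 bp, than at *Spi1*, of 33367 bp, and a narrow bin is more easily empty.

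The same bases were under peaks in several libraries more often at the myeloid genes than in other windows. Of the 516 regions 83, or 16.1%, had a peak in all 4 libraries and 275, or 53.3%, in a single library. Over all protein-coding windows these shares were 11.8 and 54.4%. Each library also had more of the bases under peaks at the 10 genes, and the part of coverage in this sharing was not tested. The overlap of library pairs at the 10 genes, as shared bases over bases under either library, was 0.288 for the wild-type pair and 0.287 for the HDAC7-deficient pair. Between genotypes it was 0.365 for replicates 1, 0.265 for replicates 2, and 0.303 and 0.247 for the pairs with different numbers. The most alike pair was thus wild-type and HDAC7-deficient replicate 1, and over all protein-coding windows the same pair was the most alike, at 0.320. Regions found in replicates 1 of both genotypes and in neither replicate 2 were 5.04% of those at the 10 genes, more than the 3.29% lost and the 1.55% gained. That pattern made up 4.38% over all protein-coding windows, so it was not particular to these genes. Regions found in replicates 2 alone were 1.55% at the 10 genes and 3.28% over all protein-coding windows.

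A further 43 genes were listed as myeloid, not all of them confined to granulocytes and macrophages. Their median coverage was 11.5%, between the 14.6% of the 10 genes and the 9.89% of all protein-coding genes. By peaks 6 were higher and 6 lower without HDAC7, and by peak bases 1 was higher and 9 were lower. Over all protein-coding genes the shares were 11.9 and 10.8% by peaks and 9.96 and 16.9% by peak bases. *Fosl2*, which encodes an AP-1 subunit, was lower by both. It had 28 and 22 peaks in wild-type libraries against 18 and 18 without HDAC7, and 3773 and 3508 peak bases against 2492 and 3187. The study's text, in contrast, names *Fosl2* as a gene that gained 5-hmC without HDAC7, and measured it by qPCR after immunoprecipitation. Such enrichment at a locus is another measure than peak number and width over the window. The most covered of the listed genes were *Irf8* at 26.2% and *S100a9* at 24.2%. The former encodes a transcription factor of monocyte and dendritic cell development that B cells also express, the latter a calprotectin subunit. *Camp*, encoding cathelicidin, and *Cybb*, encoding a subunit of the phagocyte oxidase, were the least covered, at 3.79 and 4.98%. *Cybb* is X-linked.

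Coverage above that of protein-coding genes at large was also found in the lists of other lineages. For 10 transcription factor genes of B cells the median was 14.1%, from 10.8% at *Lef1* to 16.1% at *Ikzf3*, and for 12 genes of the T lineage it was 11.3%, from 7.76% at *Cd8a* to 20.2% at *Zap70*. By peak bases 4 of the 10 B-cell genes were higher and 0 lower without HDAC7, and 4 of the 12 T-lineage genes were lower and 0 higher, beside 9.96% higher and 16.9% lower among all genes. By peak number the B-cell genes went the other way, with 0 higher and 2 lower, and of the T-lineage genes 0 were higher and 1 was lower, beside 11.9% higher and 10.8% lower among all genes. *Pou2af1*, named here because it was lower by peaks and higher by bases, is 1 of the 10. No test sets these lists apart from the 10 myeloid genes.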

How the data were processed

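Trimming by the authors used Cutadapt 1.6 under Trim Galore 0.4.2. Their aligner to mm10 was bwa per the methods and Bowtie2 per the submitters' processing notes. Duplicates were removed, and MACS2 bdgpeakcall found the peaks of every library at a signal cutoff of 250, keeping those of 10 bp or more and joining gaps of up to 10 bp. Peaks that met input peaks were removed. Whether this preceded deposition is not stated. The deposited lists hold peak positions alone, with no score or count. The 4 input libraries were not analysed here.

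Positions were intersected with GENCODE M21 on GRCm38 in Python 3.11.15 with NumPy 2.4.6, counting overlaps of at least 1 bp. Union regions merged peaks sharing a base. A gene was called higher or lower when the 2 genotypes did not overlap. Sums were compared by two-sided exact permutation over 6 splits. Genes of like length lay within 25%. Intersections were checked on simulated peaks. The 10 genes and the lists of other genes were chosen with earlier results of these data known. All 10 genes are named. Others are those called in 1 direction by both measures and the extremes of coverage. Alternatives were other windows, width and merging rules, midpoints, scaling by chromosome, leaving out libraries, and pairing by number.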

Additional observations from a re-analysis of the deposited data

How the results depend on the processing

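The ratio of summed peak bases stayed below 1 under every alternative tried, from 0.861 to 0.955 when a library was left out. In the gene body alone (ratio 0.915) and with scaling to chromosome density (0.903), however, the genotypes overlapped (exact permutation p = 0.667 for each). That of summed peaks ran from 0.900 to 1.08, above 1 without wild-type replicate 1 (1.03) and without HDAC7-deficient replicate 2 (1.08). With the replicate number as a block, the ratio was 0.907 for peak bases (exact sign-flip p = 0.5, the smallest that 2 pairs allow) and 0.985 for peaks (p = 1.00), so the block changed no call. Deviations of libraries with the same number correlated at 0.0853 over 21938 genes, and the labels do not say that a number marks a batch.

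Under the alternatives, calls were counted for the 10 genes alone, so no share of all protein-coding genes stands beside these counts. With a library left out, calls rest on 3 libraries, and the rule is then met more easily in either direction. Members higher in peak bases numbered 1 in the gene body alone, with peaks merged within 100 bp, or with scaling to chromosome density, and 0 to 2 without a library. Those lower in peak bases numbered 4 with peaks of at least 200 bp, and 3 to 6 without a library. By peaks, 1 was higher in the body alone or with scaling, 2 with 10 kb on each side, and 0 to 5 without a library, and 1 was lower in the body alone, with 10 kb on each side or with merging, 3 with wide peaks, and 0 to 4 without a library. *Spi1* kept fewer peak bases without HDAC7 in 10 of 10 alternatives and *Lyz2* in 9 of 10, the exception being the gene body alone (1.07). Gained regions numbered 13 with 10 kb on each side. Without a library the rule rests on 3 libraries, and gained regions numbered 19 to 100 and lost ones 32 to 102. Median coverage was 11.3% in the body alone, 13.6% with 10 kb on each side, 10.2% with peaks of at least 200 bp, and 14.3 to 15.0% without a library. The median rank among genes of like length was 67.3, 85.3 and 85.2% under the same 3 settings and 85.4 to 89.0% without a library, beside 87.8% as reported. Depth is unknown, so a missing peak cannot be told from shallow sequencing.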
